A study of Mus musculus with 18 samples.

Results

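The cytosolic ribosomal protein genes were described in 18 RNA sequencing libraries of mouse osteoblasts and their reference cells. Members were the rows of the 3 deposited count tables whose symbol is Rpl or Rps followed by a number, with the usual letter suffixes, or is *Rplp0*, *Rplp1*, *Rplp2* or *Rpsa*, and pseudogene rows ending in -ps and the Rps6k kinases were left out. This gave 82 of the 20200 gene symbols in the tables, 49 of the large and 33 of the small subunit. The filter on low counts left 79 of them in bone and 79 in bone chips, and 81 in the stem cell series. *Rpl26* was not analysed here.

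All GFP+ (hi) cells carried Col2.3GFP, a transgene in which a fragment of the *Col1a1* promoter drives GFP, so GFP marks cells with an active collagen promoter and not every osteoblast. GFP+ (hi) osteoblasts and a heterogeneous GFP- population were sorted fresh from long bone of these mice. The same 2 populations were sorted from bone chip cultures, in which cells growing out of bone fragments had undergone osteogenic differentiation. GFP+ (hi) osteoblasts derived from embryonic stem cells (ESC-OB) were set against ESC, and the mouse strain is not given in the labels. Osteogenic differentiation stands as treatment in the labels of both, but titles and methods describe the ESC as not differentiated, and they were read that way. Each of the 6 groups has 3 libraries, and the labels do not say whether these came from separate animals or cultures, so p-values measure the spread between these libraries only.

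Ribosomes are built from ribosomal RNA and the ribosomal proteins, which are needed in equal numbers, and cells keep them in balance. The RNA is transcribed by RNA polymerase I as a long precursor, processed in the nucleolus by assembly factors and joined there by imported ribosomal proteins. The mRNAs of ribosomal proteins begin with a terminal oligopyrimidine (TOP) run that places their translation under mTOR and LARP1. Inherited defects of single ribosomal proteins cause Diamond-Blackfan anaemia or disorders of the skeleton.

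The pyrimidine runs of these genes are shown in 4 of the members described later, as RefSeq gives their start regions on GRCm38.p6. Capitals mark the run CTTTCC, the run CTCTTT or the run CTTTTC on the sense strand, 1 run in each window. The whole windows lie at chr4:86857350-86857379 on the minus strand for *Rps6* and chr11:114668568-114668597 on the plus strand for *Rpl38*. They lie at chr10:23787183-23787212 on the minus strand for *Rps12* and chrX:134585674-134585703 on the plus strand for *Rpl36a*. In *Rpl36a* a second of these runs overlaps the one in capitals and is not marked. The marked runs begin at the RefSeq start in *Rps6* and *Rpl38*, 9 bases after it in *Rps12* and 32 bases after it in *Rpl36a*. Those of *Rps12* and *Rpl36a* are thus not shown to begin the mRNA.
Rps6: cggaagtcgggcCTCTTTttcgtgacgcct
Rpl38: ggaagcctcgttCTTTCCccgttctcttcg
Rps12: gccaccgccggcCTTTTCccctgccgccgc
Rpl36a: gctctagcctctCTCTTTccgagctgctag
Start regions were matched for 61 of the 82 members. Within 50 bases of the start, 35 of these 61 (57.4%) hold at least 1 of the 3 overlapping 6-base runs, against 12.6% of 27025 genes. CGGAAG, an Ets-type core searched on both strands from 250 bases before to 50 after the start, is in 68.9% of the members and 18.8% of all genes. TATAAA was found in the 50 bases before the start of 0 members and of 3.15% of all genes. These matches describe letters in the window, and no binding was measured.

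Among the members, 2 pairs of a parent gene and its paralog carry the widest changes, and their coding sequences are shown to make clear how well reads can tell them apart. *Rpl10l* lies on the minus strand at chr12:67384368-67385388 and *Rpl10* on the plus strand at chrX:71516151-71518474 of mm9, and the first 150 of 645 coding bases are given for both. Capitals mark the bases that differ within a pair.
Rpl10l: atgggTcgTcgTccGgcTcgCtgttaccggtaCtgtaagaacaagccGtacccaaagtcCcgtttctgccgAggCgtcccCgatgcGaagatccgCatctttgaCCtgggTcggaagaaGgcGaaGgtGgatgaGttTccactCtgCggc
Rpl10: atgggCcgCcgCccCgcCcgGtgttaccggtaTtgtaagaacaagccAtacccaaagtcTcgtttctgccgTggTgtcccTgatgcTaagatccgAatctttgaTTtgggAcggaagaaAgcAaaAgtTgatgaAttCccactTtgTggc
*Rpl39l* lies on the plus strand at chr16:10170319-10175004 and *Rpl39* on the minus strand at chrX:34622515-34625397 of mm9, and the whole coding sequence of 156 bases is given for both.
Rpl39l: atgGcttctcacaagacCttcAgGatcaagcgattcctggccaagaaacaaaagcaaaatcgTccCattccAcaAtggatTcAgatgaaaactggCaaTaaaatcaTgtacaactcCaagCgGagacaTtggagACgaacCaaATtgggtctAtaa
Rpl39: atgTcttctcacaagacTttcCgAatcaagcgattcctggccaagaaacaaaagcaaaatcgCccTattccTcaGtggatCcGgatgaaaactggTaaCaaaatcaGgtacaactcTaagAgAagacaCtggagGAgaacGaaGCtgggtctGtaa
In GENCODE vM1 the coding sequences of *Rpl10l* and *Rpl10* are 84.8% identical, those of *Rpl39l* and *Rpl39* 85.3%, of *Rpl36al* and *Rpl36a* 87.9%, of *Rps27l* and *Rps27* 76.1%, of *Rpl3l* and *Rpl3* 73.3% and of *Rps4l* and *Rps4x* 79.8%. No pair shares a run of 100 bases, the length of 1 read, so a read of full length inside the coding sequence differs between the partners. Processed pseudogenes elsewhere in the genome are closer copies. Among the 81 members with an mRNA in GENCODE vM1, the share of 100-base windows with an exact copy elsewhere in mm9 had a median of 46.8%, from 0% for 6 members (such as *Rpl39l* and *Rpl22*) to 99.6% for *Rps27*. How the authors' counting treated reads with several matches is not given in the sources used here. *Rpl30*, *Rpl34* and *Rps27*, with copies over 48.2%, 39.6% and 99.6% of their windows, stood below 6 CPM (counts scaled to a common library total) in all 18 libraries.

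Total counts per library ranged from 4920977 to 43874837. The collagen gene *Col1a1* alone made up 36.2 to 37.5% of all counts in GFP+ (hi) libraries of bone, but only 0.805 to 1.59% in the GFP- ones. In bone, the summed level of 6 chondrocyte markers was 153336 to 262330 CPM in GFP- libraries and 1220 to 3253 CPM in GFP+ (hi) libraries, per unscaled total and with none of them at 0, and that of 8 cell cycle genes was 301 to 413 CPM against 32.4 to 42.6 CPM. In bone chips the cell cycle genes summed to 265 to 405 CPM in GFP- and 77.7 to 93.9 CPM in GFP+ (hi) libraries. Pluripotency markers, 6 genes, summed to 3309 to 3773 CPM in ESC and 3.82 to 9.17 CPM in ESC-OB, and the cell cycle genes to 3499 to 3663 CPM and 198 to 301 CPM. Transcripts of 4 genes of chromosome Y summed to 96.6 to 213 CPM in bone GFP- and to 0.137 to 42.6 CPM in bone GFP+ (hi) libraries, so sex and GFP cannot be told apart there. In bone chips only 1 of these 4 genes has a row, at 0 CPM in GFP- and 0 to 0.0708 CPM in GFP+ (hi) libraries. Sex may thus also differ between bone and bone chips, and its part in the interaction test was not tested. Markers of fibroblasts and progenitors, 6 genes, summed to 1484 to 2056 CPM in ESC-OB and 2.55 to 5.03 CPM in ESC, and 5 macrophage markers summed to 195 to 262.5 CPM in ESC-OB and 14.2 to 19.0 CPM in ESC. The 6 neutrophil markers with a row summed to 699 to 913 CPM in ESC-OB and 0 to 0.359 CPM in ESC, nearly all of it Ltf, and no other of them passed 0.44 CPM in ESC-OB. In bone chips the macrophage markers summed to 388 to 4431 CPM in GFP- and 375 to 634 CPM in GFP+ (hi) libraries. The part of these differences in the results below was not tested.

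The members together took a small share of each library, and that share was lower in the GFP+ (hi) cells of every source. In bone, ribosomal protein genes took 0.893%, 0.841% and 0.937% of the counts in the 3 GFP- libraries and 0.386%, 0.356% and 0.430% in the GFP+ (hi) libraries. The bone chip libraries had 2.99%, 3.31% and 2.87% in GFP- and 1.88%, 1.99% and 1.92% in GFP+ (hi) cells. The groups of each source do not overlap, and the widest gap was in the stem cell series. ESC gave 6.51%, 5.91% and 5.95%, and ESC-OB 1.46%, 2.25% and 1.41%, with replicate 2 above the other two. A share falls when other genes take more of the counts, and with *Rn45s* and *Col1a1* left out of the totals the mean share was 0.901% against 0.620% in bone, 3.53% against 2.53% in bone chips and 6.55% against 1.73% in the stem cell series. Other abundant matrix genes stayed in these totals. In bone, per unscaled total, *Col1a2* stood at 7752 to 12466 CPM in GFP- and 156002 to 173098 CPM in GFP+ (hi) libraries. *Col2a1* stood at 136773 to 240580 CPM and 1137 to 2895 CPM. Fewer ribosomal protein mRNAs per cell and more of other mRNAs cannot be told apart in such shares, nor, in these bulk samples, can fewer cells of a type and less RNA per cell.

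**Figure D1:**
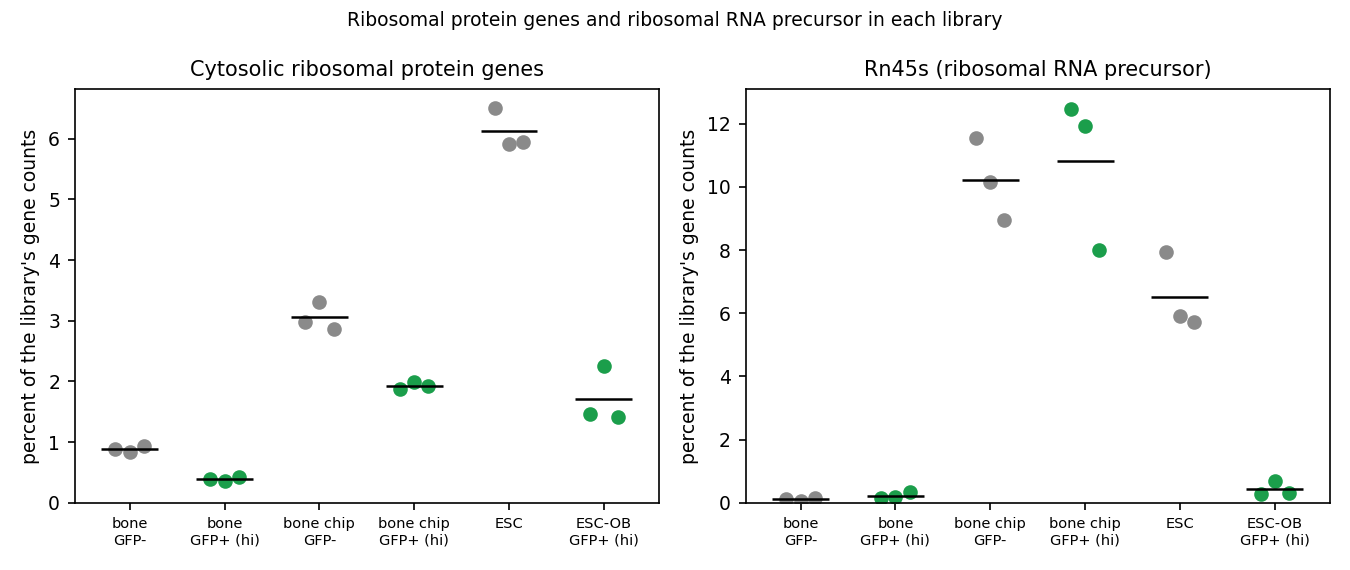
Percent of the gene counts of each library (y axis) taken by the 82 cytosolic ribosomal protein genes (left) and by *Rn45s* (right) in the 6 groups (x axis). Each point is a library, grey for reference and green for GFP+ (hi) cells, and the line is the mean of 3; the ribosomal protein share is lower in GFP+ (hi) cells in each source, and *Rn45s* is above 5% only in the bone chip and ESC libraries.

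Gene by gene, levels were compared as CPM scaled by TMM, which sets the bulk of the genes level between libraries, with edgeR's quasi-likelihood test and Benjamini-Hochberg adjustment over all genes tested. Without scaling factors the median of all genes moved from -0.00 to -1.06 (log2) in bone, from -0.04 to -0.60 in bone chips and from 0.22 to 0.44 in the stem cell series, and the members moved with it, by a median of -0.16 relative to all genes in bone with TMM and -0.13 without. The folds that follow are relative to the bulk of the genes. Without scaling factors, 3 of the 6 rises called in bone and bone chips (*Rpl27a*, *Rps28* and *Rpl14*) turn into falls that were not called.

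In bone, 2 of the 79 members tested were called higher in GFP+ (hi) than in GFP- cells (2.53%, against a background of 19.5% of 12559 genes) and 5 lower (6.33%, against 22.1%), with 41.6% of all genes called in either direction. The libraries of the groups did not overlap for 17 members, against 55.9% of all genes. The median log2 fold change of the members was -0.16, with quartiles at -0.30 and 0.02, beside a median of -0.00 and quartiles at -0.78 and 0.61 for all genes tested. For 69 of the 79 members (87.3%) the 95% interval of the fold change lay within 2-fold of no change, against 30.5% of all genes. The large subunit had 2 members higher and 2 lower of 46 with a median of -0.10, and the small subunit 0 higher and 3 lower of 33 with a median of -0.22. GFP- replicate 3 held the highest level of the group for 67 of the 79 members, and without it the median was 0.02. GFP+ (hi) replicate 3 likewise held the highest level of its group for 67 members. Replicate 2 held the lowest level for 66 members in GFP- and 51 in GFP+ (hi) cells.

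*Rpl29*, a large subunit protein whose loss slows growth in mice, rose most in bone. It stood at 17.0, 14.4 and 19.9 CPM in the GFP- and at 44.0, 38.7 and 52.0 CPM in the GFP+ (hi) libraries, which do not overlap. The log2 fold change was 1.39 (SE 0.19, edgeR adjusted p = 3.8e-04). Over the fits it ranged from 0.35 to 1.54, and the call held in 16 of 17 (edgeR adjusted p up to 0.124). *Rpl27a*, another large subunit protein, went from 32.9, 26.3 and 42.8 CPM to 51.2, 49.5 and 59.6 CPM (log2 0.65, SE 0.20, edgeR adjusted p = 0.025), and its call was lost in 4 of the 6 fits that left out 1 library (edgeR adjusted p up to 0.077) and turned in sign without scaling factors (log2 -0.38). Exact copies of parts of the *Rpl29* mRNA lie at 28 other loci, so its counts are uncertain where reads had several matches.

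The falls in bone were smaller than 2-fold. *Rps3a1*, a small subunit protein next to the mRNA exit, stood at 135, 109 and 149 CPM in GFP- and 71.1, 66.0 and 75.2 CPM in GFP+ (hi) cells (log2 -0.89, SE 0.16, edgeR adjusted p = 1.9e-03), and it was called lower in all 17 fits. *Rpl35a* (log2 -0.67, edgeR adjusted p = 9.8e-03) and *Rpl5* (log2 -0.56, edgeR adjusted p = 9.3e-03), both mutated in Diamond-Blackfan anaemia, also fell without overlap between the groups. *Rpl5* binds the smallest ribosomal RNA of the large subunit and went from 102, 111 and 109 CPM to 71.6, 67.8 and 78.6 CPM. *Rpl5* lost its call without GFP+ (hi) replicate 2 (edgeR adjusted p = 0.053), and *Rpl35a* when the libraries were thinned to the smallest total (edgeR adjusted p = 0.068).

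In bone chips, 4 of the 79 members tested were higher (5.06%, against 20.4% of 12841 genes) and 9 lower (11.4%, against 23.1%) in GFP+ (hi) cells, where 43.5% of all genes were called in either direction. The libraries did not overlap for 30 members, against 56.1% of all genes. The median of the members was -0.09, with quartiles at -0.21 and -0.02, and that of all genes -0.04, with quartiles at -0.50 and 0.32. Intervals within 2-fold of no change were found for 76 members (96.2%) and 59.2% of all genes. Large and small subunits had medians of -0.07 and -0.11.

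The 2 widest rises of the bone chips were paralogs with few counts. *Rpl39l*, a copy of *Rpl39* best known from the male germ line, stood at 4.18, 3.30 and 4.82 CPM in GFP- and 10.03, 8.29 and 10.7 CPM in GFP+ (hi) cells (log2 1.23, SE 0.19, edgeR adjusted p = 2.1e-03). *Rps4l*, an autosomal gene like the X-linked *Rps4x*, stood at 2.26, 1.84 and 2.97 CPM and at 5.86, 3.48 and 6.69 CPM (log2 1.17, SE 0.30, edgeR adjusted p = 0.020). Among abundant members the rises were slight. *Rps28* went from 162, 181 and 161 CPM to 211, 213 and 214 CPM (log2 0.34, SE 0.08, edgeR adjusted p = 0.015) and *Rpl14* from 264, 293 and 254 CPM to 330, 332 and 337 CPM (log2 0.30, SE 0.09, edgeR adjusted p = 0.031). Both signs turn without scaling factors (log2 -0.21 and -0.25, not called), and *Rpl14* lost its call in 5 of the 6 fits that left out 1 library (edgeR adjusted p up to 0.094). *Rps4l* lost it in 3 of these fits (edgeR adjusted p up to 0.068).

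*Rpl36a* fell most in bone chips, from 158, 179 and 167 CPM in GFP- to 111, 107 and 116 CPM in GFP+ (hi) cells (log2 -0.59, SE 0.08, edgeR adjusted p = 1.5e-03). *Rpl17* (log2 -0.55, edgeR adjusted p = 2.8e-03), *Rpl12* (log2 -0.41, edgeR adjusted p = 6.0e-03), *Rps24* (log2 -0.40, edgeR adjusted p = 0.010) and *Rpl10a* (log2 -0.39, edgeR adjusted p = 0.020) followed, all without overlap between the groups. The falls of *Rpl36a*, *Rpl17* and *Rpl12* were called in all 17 fits, and that of *Rpl10a* was lost in 4 of the 6 fits that left out 1 library (edgeR adjusted p up to 0.071).

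In the stem cell series nearly every member fell. Of 81 members tested, 75 were lower in ESC-OB than in ESC (92.6%, against 34.7% of 15417 genes) and 0 higher (against 43.0%), where 77.7% of all genes were called in either direction, and the groups of these 75 do not overlap (background 81.6% of all genes). An unadjusted edgeR p under 0.05 was reached by 75 members, and DESeq2 called 0 higher and 74 lower. Over all 15417 genes DESeq2 called 6650 higher and 5453 lower, and unadjusted p-values were not counted over all genes. The median log2 fold change was -2.14, with quartiles at -2.65 and -1.73, beside 0.22, -1.18 and 2.06 for all genes. Among the 75, 73 fell by more than 2-fold and 47 by more than 4-fold. Falls of these sizes were not counted over all genes, whose lower quartile was -1.18. Large and small subunits had medians of -2.10 and -2.16. The ratio of large to small subunit counts was 1.45, 1.48 and 1.48 in ESC and 1.64, 1.58 and 1.63 in ESC-OB. In bone it was 1.60, 1.59 and 1.64 in GFP- and 1.86, 1.79 and 1.85 in GFP+ (hi) libraries, again without overlap, and in bone chips the groups overlapped, from 1.36 to 1.41 over all 6 libraries. The difference in this ratio was not tested. The whole set's fall in ESC-OB cannot be told apart from a division between libraries that is given with the make-up of the counts. ESC-OB replicate 2 was the highest of its group for 77 of 81 members, and the median without it was -2.32.

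**Figure D2:**
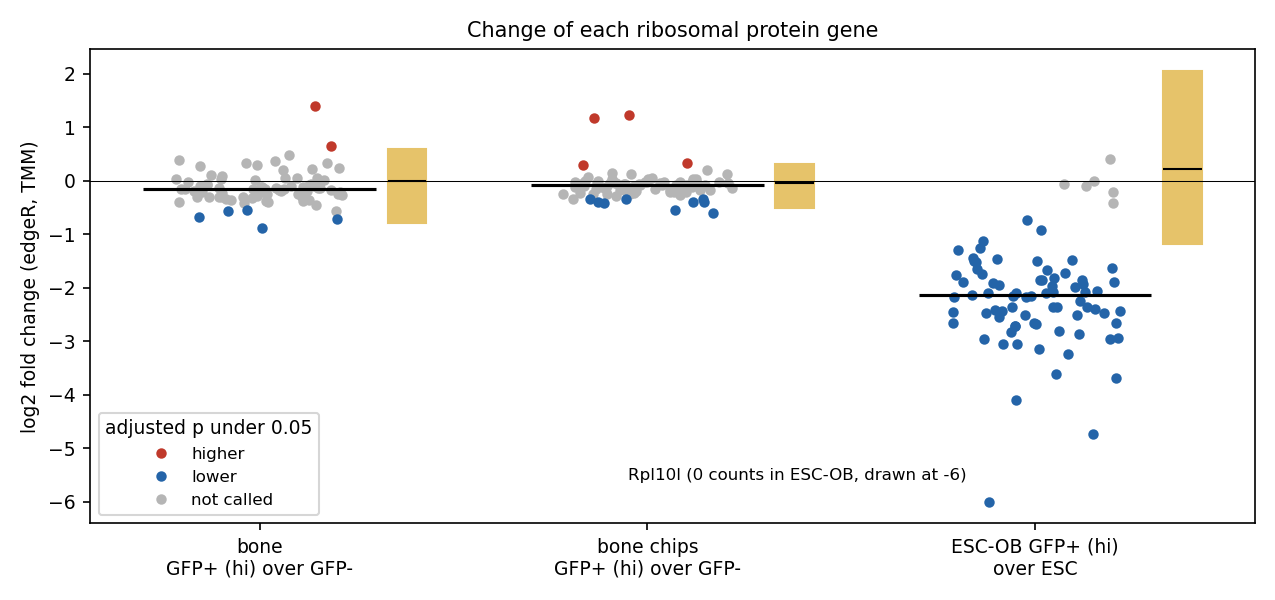
Log2 fold change of each ribosomal protein gene tested (y axis, edgeR with TMM) in the 3 comparisons (x axis), coloured by call; black lines are the medians of the members, and yellow bars span the quartiles of all genes tested with their median as a line. Members lie close to 0 in bone and bone chips and around -2.14 in ESC-OB, and *Rpl10l*, with 0 counts in ESC-OB, is drawn at -6.

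*Rpl10l*, the autosomal copy of the X-linked *Rpl10* known from male meiosis, gave the widest difference. It had 217, 706 and 128 counts in the 3 ESC libraries (40.0, 39.2 and 26.8 CPM) and 0 counts in each ESC-OB library. Against a floor of 3 counts over the ESC-OB group it was at least 940.0-fold lower there (edgeR adjusted p = 1.25e-07), and at that bound it still lies below the members' median, which it leaves as given. Its parent *Rpl10* stood at 1933, 2091 and 1816 CPM in ESC and 214, 371 and 212 CPM in ESC-OB (log2 -2.87, SE 0.25, edgeR adjusted p = 2.0e-06). *Rpl39l* went from 13.6, 12.7 and 9.84 CPM to 0.552, 0.502 and 0.281 CPM (log2 -4.74, SE 0.40, edgeR adjusted p = 1.4e-06). Its parent *Rpl39* fell as well (log2 -2.96, SE 0.27, edgeR adjusted p = 2.8e-06).

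After these paralogs, *Rps12* fell most. It stood at 1000, 1057 and 954 CPM in ESC and 42.4, 86.3 and 46.8 CPM in ESC-OB (log2 -4.10, SE 0.29, edgeR adjusted p = 3.9e-07). *Rpl36a* (log2 -3.69, SE 0.26, edgeR adjusted p = 3.4e-07) and the X-linked *Rps4x* (log2 -3.62, SE 0.31, edgeR adjusted p = 1.6e-06) followed. *Rps4x*, at 2303, 2260 and 1986 CPM, was the member with the second highest level per kilobase of mRNA in ESC, at 2239 CPM per kb, after *Rpl10* at 2436 CPM per kb. Exact copies cover 97.8% of the windows of the *Rps12* mRNA and 91.7% of those of *Rpl36a*, against 43.4% for *Rps4x*.

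The 6 members that were not called include abundant ones, and *Rps19* and *Rpl34* were chosen for mention after their values were seen. *Rps19*, the gene most often mutated in Diamond-Blackfan anaemia, stood at 552, 521 and 494 CPM in ESC and 429, 688 and 451 CPM in ESC-OB, with a log2 fold change of 0.00 and a 95% interval from -0.46 to 0.46. *Rpl13*, variants of which cause a human skeletal dysplasia, stood at 840, 856 and 780 CPM and at 690, 1001 and 693 CPM (log2 -0.06, 95% interval -0.49 to 0.38). For both genes a fall of the size of the members' median lies outside the interval. *Rps27l*, a paralog induced by p53, had a log2 fold change of -0.10 (interval -0.47 to 0.27). *Rpl34* had -0.20 (interval -1.13 to 0.72) and *Rps27* 0.41 (interval -0.73 to 1.55).

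Other members with known roles followed the bulk of the group. The stalk proteins that recruit elongation factors had log2 fold changes in ESC-OB of -1.95 for *Rplp0*, -2.95 for *Rplp1* and -1.53 for *Rplp2*, all called (edgeR adjusted p from 3.6e-06 to 1.7e-04), and none of them was called in bone or bone chips. *Rpsa*, which also acts as a laminin receptor, had a log2 fold change of -2.65 (edgeR adjusted p = 8.0e-06), and *Rps6*, the substrate of the S6 kinases, of -1.91 (edgeR adjusted p = 8.2e-06). *Rps27a*, made as a fusion with ubiquitin, fell by 1.93 on the log2 scale (edgeR adjusted p = 3.8e-05). *Rpl38* and *Rpl24*, whose mouse mutants have patterning defects of the axial skeleton, had log2 fold changes of -2.06 (edgeR adjusted p = 7.6e-06) and -1.66 (edgeR adjusted p = 7.6e-05) in ESC-OB. *Rpl38* had 0.37 (95% interval -0.03 to 0.77) in bone and 0.21 (interval -0.02 to 0.43) in bone chips, and *Rpl24* had -0.15 (interval -0.62 to 0.32) and -0.21 (interval -0.43 to 0.01), none called.

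*Rps24*, a small subunit protein mutated in Diamond-Blackfan anaemia, was the only member called lower in all 3 comparisons, out of 79 tested in each (background 3.09% of 11623 genes), and 0 members were higher in all 3 (background 4.82%). In bone it stood at 58.5, 77.1 and 99.3 CPM in GFP- and 42.1, 42.2 and 58.6 CPM in GFP+ (hi) cells, where the highest GFP+ (hi) value lies just above the lowest GFP- value (log2 -0.72, SE 0.22, edgeR adjusted p = 0.028). In bone chips it stood at 456, 494 and 469 CPM against 336, 359 and 378 CPM, and in ESC-OB it fell by 2.71 on the log2 scale (edgeR adjusted p = 1.9e-06). The shared call rests on the bone libraries, since it was lost there in 4 of the 6 fits that left out 1 library (edgeR adjusted p up to 0.126). It was lost too without bone chip GFP+ (hi) replicate 1 (edgeR adjusted p = 0.058). Of the 79 members, 60 were called neither in bone nor in bone chips. The share of all genes called in neither was not counted, while 41.6% of all genes were called in bone and 43.5% in bone chips. Of 19 ribosomal proteins mutated in Diamond-Blackfan anaemia, 18 were tested, with 0 higher and 3 lower in bone (median log2 -0.13), 1 and 1 in bone chips (median -0.10) and 0 and 16 in ESC-OB (median -2.17). Beside them, 19.5% of all genes were higher and 22.1% lower in bone, 20.4% and 23.1% in bone chips, and 43.0% and 34.7% in ESC-OB.

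Whether the effect of GFP differs between bone and bone chips was tested as an interaction in 1 fit of 12 libraries. Of 79 members tested, 3 had a more positive effect in bone (background 14.7% of 13574 genes) and 5 in bone chips (background 15.6%, and 30.3% for both directions). *Rpl29* differed most, with an effect in bone larger by 1.41 on the log2 scale (SE 0.21, edgeR adjusted p = 2.7e-04), its level in bone chips being 62.7, 64.3 and 57.2 CPM in GFP- and 59.1, 58.0 and 65.1 CPM in GFP+ (hi) cells. *Rps3a1* (difference -0.93, SE 0.19, edgeR adjusted p = 2.6e-03) and *Rpl5* (difference -0.69, SE 0.16, edgeR adjusted p = 7.0e-03) fell in bone and not detectably in bone chips, where their log2 fold changes were 0.04 and 0.13. These 3 genes were called in all 23 fits of the interaction. *Rps4l* (difference -1.54, edgeR adjusted p = 0.012) and *Rps28* (difference -0.70, edgeR adjusted p = 0.0165) had positive effects in bone chips and effects of -0.37 and -0.35, not called, in bone. *Rpl10a* (0.68, edgeR adjusted p = 0.017), *Rpl27a* (0.67, edgeR adjusted p = 0.038) and *Rpl35a* (-0.64, edgeR adjusted p = 0.026) complete the 8. No member was called in opposite directions in the 2 sources.

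**Figure D3:**
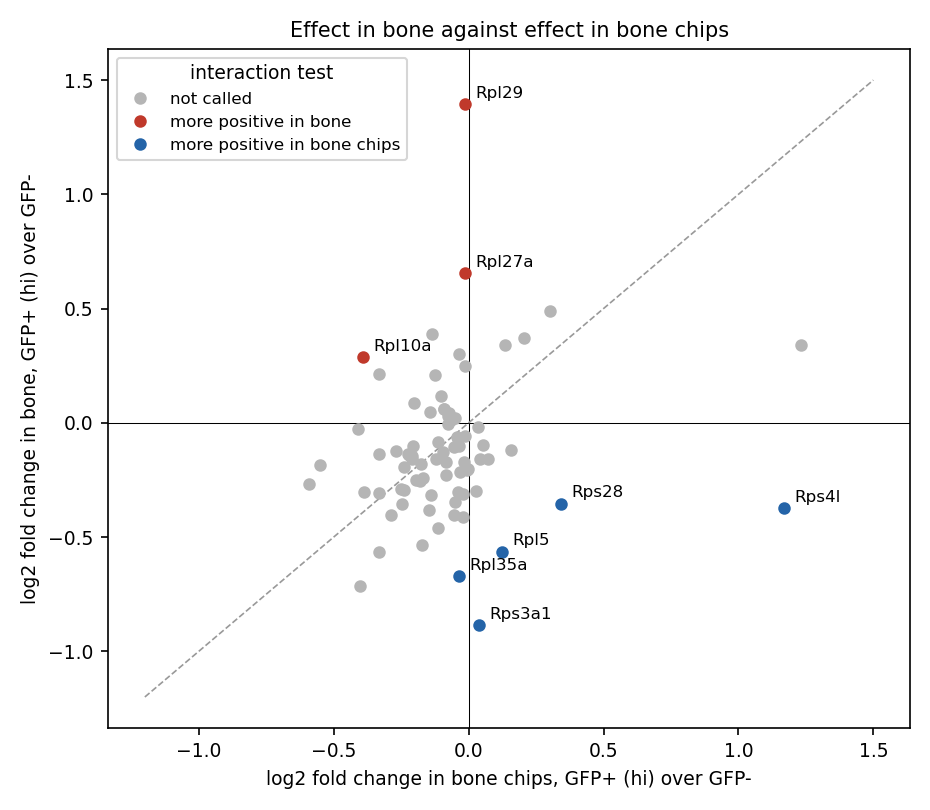
Log2 fold change of GFP+ (hi) over GFP- cells in bone chips (x axis) and in bone (y axis) for the 79 members in the interaction test; the dashed line marks equal effects and colours the edgeR call. *Rpl29*, *Rpl27a* and *Rpl10a* lie above the line and *Rps3a1*, *Rpl5*, *Rpl35a*, *Rps28* and *Rps4l* below it, and the other 71 members are grey.

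The make-up of the ribosomal protein counts, taken as each gene's percent of the counts of all members, fell into 2 sets of libraries that cross the study's groups. Over the 81 members with a row in all tables, Spearman's rho between single libraries was 0.87 to 0.99 within the 9 libraries of bone and ESC-OB and 0.89 to 1.00 within the 9 libraries of bone chips and ESC, but 0.56 to 0.70 between these sets. These are descriptions over the same genes, and lengths of genes enter all of them alike. *Rpl13* took 4.48 to 5.29% of the members' counts in every bone and ESC-OB library and 1.23 to 1.57% in every bone chip and ESC library. *Rps19* (1.92 to 3.44% against 0.750 to 0.979%) and *Rps27l* (0.543 to 1.29% against 0.192 to 0.324%) showed the same division, as did *Rpl4* (4.19 to 5.74% against 2.65 to 3.75%). The reverse held for *Rps12* (0.275 to 0.646% against 1.498 to 1.96%), *Rps4x* (0.931 to 1.28% against 1.86 to 3.45%), *Rplp1* (0.714 to 1.36% against 1.40 to 2.43%) and *Rpl7a* (0.629 to 0.924% against 1.58 to 1.99%). These 8 were chosen for display after their values were seen. In all, 17 members were higher in each of the 9 libraries of the first set than in any of the second, and 24 the reverse. The sets were read from these same libraries, and the share of all genes that separates them was not counted. These counts are therefore not shown to be particular to ribosomal protein genes.

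**Figure D4:**
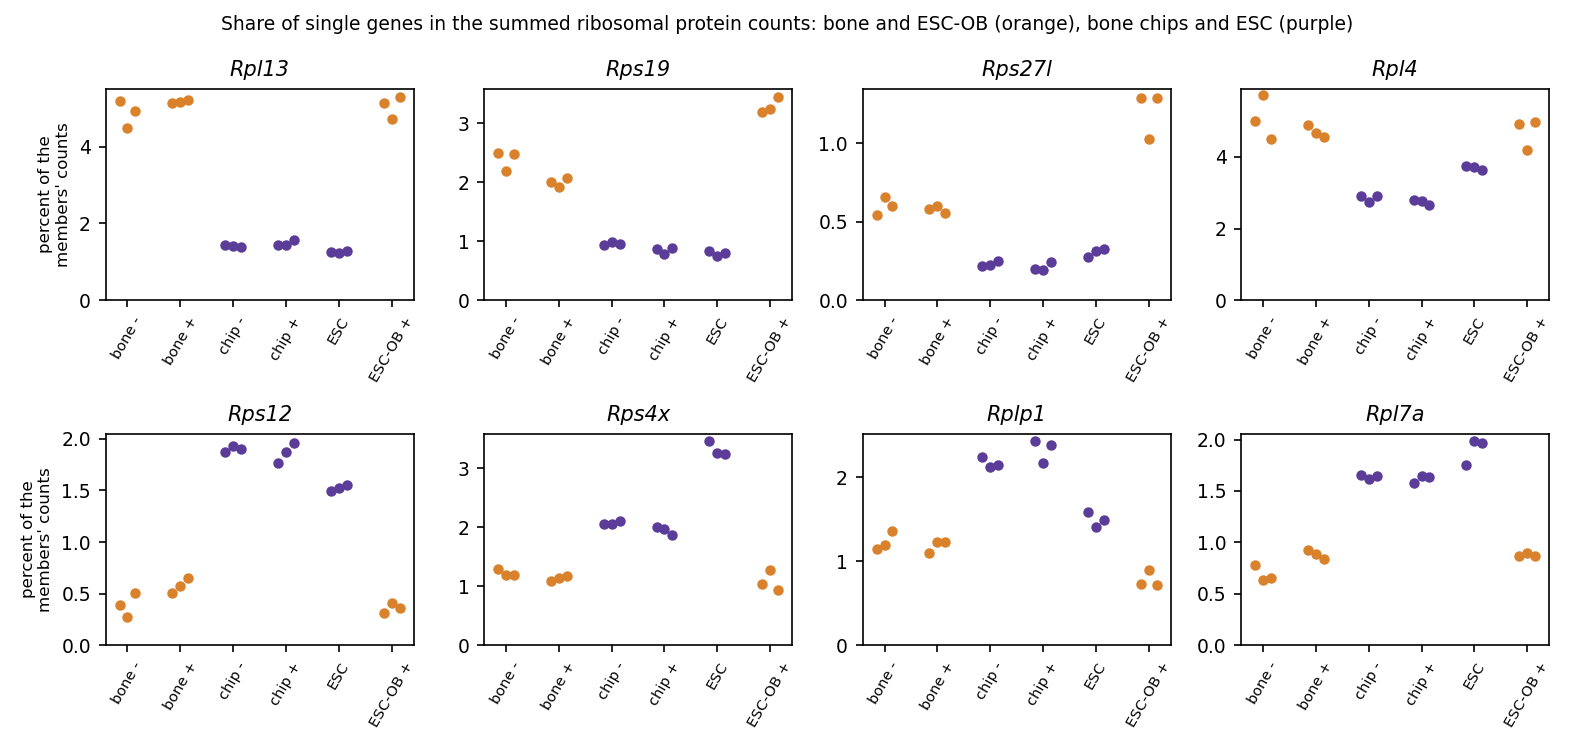
Percent of the summed ribosomal protein counts (y axis) taken by 8 members in each of 18 libraries (x axis, 3 points per group; - and + are GFP- and GFP+ (hi)), with bone and ESC-OB in orange and bone chips and ESC in purple. The upper 4 genes are higher and the lower 4 lower in every orange point than in every purple one.

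The same division appears in *Rn45s*, the ribosomal RNA precursor, which took 0.0561 to 0.690% of the counts in the libraries of bone and ESC-OB and 5.72 to 12.5% in those of bone chips and ESC. The labels name the same poly-A selection and library kit for all samples. ESC and ESC-OB fall on different sides, so the fold changes of single members between them lie across the division, and it cannot be told apart from differentiation. The share of the whole set follows the division too. With *Rn45s* and *Col1a1* left out of the totals it was 0.901% in GFP- cells of bone against 3.53% in those of bone chips, and 0.620% against 2.53% in GFP+ (hi) cells. The median fall and the count of falls in ESC-OB cannot be told apart from the division either. Bone and bone chip comparisons lie each within 1 side. The interaction test sets 1 side against the other, and the part of the division in its calls was not tested. The ratio of make-up in ESC-OB over ESC and that in bone GFP+ (hi) over bone chip GFP+ (hi), which share no library, had a Spearman's rho of 0.68 over 81 members. Across members the fold change in ESC-OB showed little relation to mRNA GC content (rho 0.09), mRNA length (rho -0.12) or the share of copied windows (rho -0.0087), each over 80 members. The make-up ratio had a rho with GC content of 0.32 for bone GFP+ (hi) over bone chip GFP+ (hi) and of 0.12 for ESC-OB over ESC.

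Per kilobase of mRNA, *Rpl13* was the most abundant member in bone GFP- (390.0 CPM per kb), bone GFP+ (hi) (374 CPM per kb) and ESC-OB (1019 CPM per kb). *Rplp1* led in bone chip GFP- (1102 CPM per kb) and GFP+ (hi) cells (1097 CPM per kb), followed in both by *Rps12*. Over 81 members, Spearman's rho between the mean profiles was 0.95 between the 2 bone groups, 0.97 between the 2 bone chip groups and 0.63 between ESC and ESC-OB.

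Paralogs and their parents were compared as the paralog's percent of the counts of the pair, which needs no scaling between libraries and is not divided by length. *Rpl10l* gave 2.03%, 1.84% and 1.45% of the pair in ESC and 0% in ESC-OB, with exact upper limits of 0.0594%, 0.0454% and 0.0700% for counting error. In bone it had 0 counts in GFP- and 4, 2 and 2 counts in GFP+ (hi) libraries, and the bone chip table has no row for it. *Rpl39l* gave 1.73%, 1.28% and 2.21% in bone chip GFP- and 4.55%, 4.17% and 4.89% in GFP+ (hi) cells, which do not overlap, and 9.54 to 19.5% and 16.0 to 19.9% in bone, which do. ESC had 1.79 to 2.16% and ESC-OB 0.445 to 0.875%.

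*Rpl36al*, an autosomal retrocopy of the X-linked *Rpl36a*, held a higher part of its pair in GFP+ (hi) cells of each source. It gave 70.1 to 75.8% in bone GFP- and 77.4 to 82.5% in bone GFP+ (hi), 28.3 to 29.5% and 36.7 to 37.7% in bone chips, and 22.4 to 27.1% in ESC and 57.3 to 63.2% in ESC-OB. Every bone and ESC-OB library thus lay above every bone chip and ESC library. The rise from ESC to ESC-OB cannot be told apart from that division. Exact copies elsewhere cover 91.7% of the windows of *Rpl36a* and 54.8% of those of *Rpl36al*. *Rpl36al* itself was called only in ESC-OB (log2 -1.46, edgeR adjusted p = 2.0e-05) and had log2 fold changes of 0.30 (95% interval -0.03 to 0.62) in bone and -0.04 (interval -0.22 to 0.15) in bone chips. *Rps4l* gave 0.334 to 0.602% of its pair in bone chip GFP- and 0.753 to 1.52% in GFP+ (hi) cells, but 11.7 to 13.9% over the bone libraries. In ESC-OB it gave 31.7%, 11.7% and 26.6%, replicate 2 lying below all ESC libraries (14.2 to 16.7%). *Rpl3l*, a striated muscle paralog, reached at most 0.473% of its pair in any library, and *Rps27l* 97.04 to 99.6%, where the parent *Rps27* is the member with the most copied sequence.

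**Figure D5:**
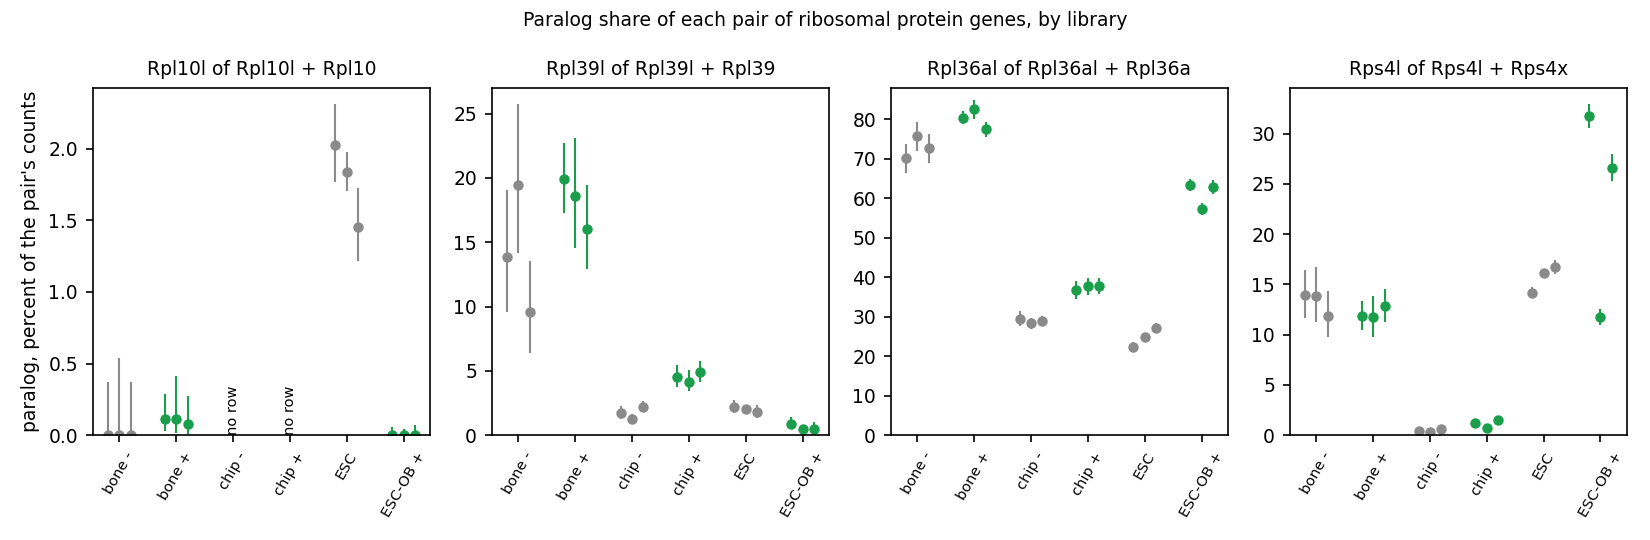
Percent of the counts of each pair that fall on the paralog (y axis) in each library (x axis, 3 points per group; - and + are GFP- and GFP+ (hi)), for *Rpl10l*, *Rpl39l*, *Rpl36al* and *Rps4l*, with exact 95% binomial intervals that cover counting error only. *Rpl10l* counts are 0 in ESC-OB, and the *Rpl36al* part is higher in GFP+ (hi) cells (green) than in the reference (grey) in each source. The *Rpl36al* part is also higher in every bone and ESC-OB library than in any bone chip or ESC library.

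Some proteins of the cytosolic ribosome have genes with other names. *Fau*, which fuses a ribosomal protein to a ubiquitin-like protein, and *Gnb2l1*, the scaffold protein Rack1, were not called in bone or bone chips and fell in ESC-OB by 1.64 and 2.49 on the log2 scale. Of the paralogs outside the rule, *Rpl22l1* was lower in bone (log2 -0.59, edgeR adjusted p = 0.032) and in ESC-OB (log2 -0.62, edgeR adjusted p = 0.049), where the libraries overlap, and *Rpl7l1* fell in ESC-OB (log2 -1.11). The *Rpl22l1* call held in 9 of 17 fits in bone (edgeR adjusted p up to 0.219) and in 9 of 17 in ESC-OB (edgeR adjusted p up to 0.234). *Rpl22l1* gave 7.85 to 10.55% of its pair with *Rpl22* in ESC and 32.7 to 34.0% in ESC-OB, 25.1 to 29.8% in bone chip GFP- and 33.8 to 37.7% in bone chip GFP+ (hi) cells, and in bone 54.4 to 57.7% against 52.5 to 59.4%, which overlap.

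The machinery that builds and uses ribosomes was counted in lists. Ribosome biogenesis factors, 58 genes, had 0 higher and 18 lower in bone (median log2 -0.42), 2 and 16 in bone chips (median -0.12) and 2 and 53 in ESC-OB (median -1.68). In bone, *Rrp12*, a pre-ribosome export factor, fell by 2.27 (edgeR adjusted p = 2.1e-04) and *Nop58*, a core protein of the box C/D snoRNPs, by 1.30 (edgeR adjusted p = 1.4e-03). *Bop1*, a large subunit assembly factor, rose in bone chips (log2 1.21, edgeR adjusted p = 3.1e-03). In ESC-OB, *Dkc1*, the pseudouridine synthase, fell by 4.31 (edgeR adjusted p = 2.5e-08) and *Npm1*, nucleophosmin, by 4.18 (edgeR adjusted p = 1.7e-07). Of all genes tested, 19.5% were higher and 22.1% lower in bone, 20.4% and 23.1% in bone chips, and 43.0% and 34.7% in ESC-OB. These shares are the background of this list and of the lists that follow.

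Chaperones dedicated to single ribosomal proteins, 8 genes, had 0 higher in any source, with 1 lower among bone, 3 among bone chip and 8 among ESC-OB tests, and *Rpf2*, which helps load *Rpl5*, was lower in all 3 (log2 -1.37, -0.66 and -2.03), its call in bone being lost without GFP- replicate 2 (edgeR adjusted p = 0.062). RNA polymerase I subunits and factors, 15 genes, had 1 higher and 0 lower in bone, 1 and 3 in bone chips and 0 and 13 in ESC-OB, where *Polr1a*, the largest subunit, fell by 3.65 (edgeR adjusted p = 4.45e-08). The 10 snoRNA host genes had 1 higher and 1 lower of 9 tested in bone, 0 and 5 in bone chips and 0 and 9 in ESC-OB. All 20 other TOP mRNAs fell in ESC-OB (median log2 -1.90), with *Pabpc1*, the poly(A) binding protein, down by 3.46, and 1 was higher and 7 lower in bone chips. Several of these 20, such as *Eef1a1*, *Eif3e*, *Npm1* and *Gas5*, are counted in other lists as well, so the lists are not separate.

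The 35 initiation factors tested had 3 higher and 8 lower in bone (median -0.03), 6 and 6 in bone chips (median -0.07) and 3 and 28 in ESC-OB (median -1.30). Their bone and bone chip counts are near or below background (19.5% higher and 22.1% lower in bone, 20.4% and 23.1% in bone chips). Elongation and termination factors had 0 higher and 10 lower of 10 tested in ESC-OB, *Eef1a1* falling by 2.51 (edgeR adjusted p = 4.0e-06). Mitochondrial ribosomal proteins, 74 genes encoded in the nucleus, had 8 higher and 4 lower in bone (median 0.04), 6 and 7 in bone chips (median -0.03) and 13 and 36 in ESC-OB, with a median of -0.41 against -2.14 for the cytosolic set. *Mrps6* fell in bone (log2 -2.82, edgeR adjusted p = 6.2e-06) and in bone chips (log2 -1.45) and rose in ESC-OB (log2 1.33), but the GENCODE vM1 gene *Slc5a3* lies within it on the same strand, and their reads may not be told apart. *Mrps2* fell by 2.42 in ESC-OB (edgeR adjusted p = 8.1e-07).

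Genes of mTOR and TOP control, 18 in number, were mixed. The background was 19.5% of all genes higher and 22.1% lower in bone, 20.4% and 23.1% in bone chips, and 43.0% and 34.7% in ESC-OB. In bone, 5 were higher and 3 lower, with *Mtor* itself at log2 1.68 (edgeR adjusted p = 5.9e-04) and *Deptor*, an inhibitor of mTOR, at -1.74 (edgeR adjusted p = 2.95e-03). In bone chips, 4 were higher and 1 lower of 17 tested, among them *Eif4ebp1* (log2 1.24, edgeR adjusted p = 2.5e-03), a translation repressor, and *Rps6kb1* (log2 0.83, edgeR adjusted p = 2.7e-04), the S6 kinase. In ESC-OB, 4 were higher and 12 lower of 18, with *Myc*, a transcription factor that drives ribosome production, higher (log2 5.12, edgeR adjusted p = 1.4e-06) and *Mycn* (log2 -2.96, edgeR adjusted p = 2.8e-05) and *Larp1* (log2 -2.01, edgeR adjusted p = 4.7e-06) lower.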

How the data were processed

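Poly-A RNA of the 18 samples was sequenced as paired reads of 100 bases, aligned with STAR 2.4.2a to mm9 and tested with DESeq2 in R 3.2.2 by the authors. They deposited whole counts per gene in 1 table per source, and the counting tool, strand setting and treatment of reads with several matches are not given in the sources used here. Samples were grouped by their labels, and no column of another sample was present.

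In each source, genes passing filterByExpr (minimum count 10) were scaled by TMM and tested with edgeR 4.0.16 (glmQLFit, glmQLFTest, two-sided, R 4.3.3), and calls had a Benjamini-Hochberg adjusted p under 0.05. The interaction of source and GFP was tested in 1 fit of 12 libraries. On simulated data of 12559 genes with bone's depths, 95% of genes changed by 1 on the log2 scale were recovered, against 66% for the interaction of bone and bone chips, run on 13574 genes, and 100% there at a change of 2. The simulation gave every gene the same spread between libraries and changed only genes above a limit on low counts. These percentages hold for that setting, and recovery in the real libraries may be lower. The alternatives were DESeq2 1.42.0, other scaling factors and filters, thinning to the smallest total, the replicate number as a block and leaving out each library. Over all genes tested, the replicate numbers paired the bone chip libraries (correlation of same-numbered residuals 0.16, 0.33 and 0.40), and not those of bone or the stem cell series (-0.02 to 0.03). Exact binomial intervals cover counting error only.

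The members and lists were chosen with earlier results of these data known. Named were, per comparison, up to 5 called members with the largest rises and falls, groups not overlapping and at least 10 CPM in the higher group; members called alike in all 3 comparisons; the 5 smallest interaction p-values; paralog pairs; members of known role; and up to 4 called genes per list. *Rpl39l* and *Rps4l* enter as paralogs, and *Rps24*, *Rps28*, *Rpl35a*, *Rpl27a*, *Rpl10a* and *Rps14* are also given where their values drew attention. Some genes that these rules name are not reported here. Gene models were from GENCODE vM1 (mm9), leaving out a transcript of another locus listed under *Rpl24*, and start regions from RefSeq (GRCm38.p6).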

Additional observations from a re-analysis of the deposited data

Results flagged for a closer look

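For 8 of the 79 members the effect of GFP differed between bone and bone chips by the interaction test of edgeR, and the causes were not tested. The same test called 30.3% of 13574 genes in either direction, so such calls were less common among the members than among all genes. The effect in bone minus that in bone chips, on the log2 scale, was 1.41 for *Rpl29* (SE 0.21), -0.93 for *Rps3a1* (SE 0.19), -0.69 for *Rpl5* (SE 0.16), -1.54 for *Rps4l* (SE 0.40), -0.70 for *Rps28* (SE 0.19), 0.68 for *Rpl10a* (SE 0.19), -0.64 for *Rpl35a* (SE 0.19) and 0.67 for *Rpl27a* (SE 0.22). *Rpl29*, *Rps3a1* and *Rpl5* were called in all 23 fits of the interaction, *Rps4l* and *Rpl10a* in 22, *Rps28* in 20, *Rpl35a* in 18 and *Rpl27a* in 15.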

How the results depend on the processing

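The scaling between libraries decides the counts in bone and bone chips. Without scaling factors 0 members were called higher and 73 lower in bone (median -1.19), 1 higher and 74 lower in bone chips (median -0.64), 66 lower in all 3 comparisons, and 38 in the interaction (1 more positive in bone, 37 in bone chips). Most genes shift on that scale. Of 12559 genes in bone, 696 were higher and 7785 lower, and of 12841 in bone chips 1058 were higher and 7917 lower. In the interaction, 1022 of 13574 genes were more positive in bone and 3877 in bone chips. On that scale these log2 fold changes turned negative. In bone they were *Rpl10* -0.79, *Rpl10a* -0.76, *Rpl14* -0.55, *Rpl27a* -0.38, *Rpl36al* -0.75, *Rpl38* -0.68, *Rplp0* -0.99, *Rps26* -0.92 and *Rpsa* -1.02. In bone chips they were *Fau* -0.38, *Rpl14* -0.25, *Rpl38* -0.35, *Rpl5* -0.43, *Rps14* -0.40, *Rps27a* -0.53, *Rps28* -0.21 and *Rps3a1* -0.52. Upper-quartile scaling gave 9 lower in bone and 2 lower in all 3 comparisons, and thinning, which leaves fewer counts, 1 higher and 3 lower in bone and 0 lower in all 3. Over all genes in bone, 2950 of 12559 were lower with upper-quartile scaling, and with thinning 1535 of 11330 were higher and 1981 lower. With *Rn45s* and *Col1a1* left out of the totals the mean share was 0.620% in bone GFP+ (hi), 3.53% in bone chip GFP-, 2.53% in bone chip GFP+ (hi) and 6.55% in ESC libraries.

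Leaving out 1 library at a time gave 1 to 3 members higher and 2 to 9 lower in bone, with a median of -0.23 to 0.023, the sign turning without GFP- replicate 3. It gave 1 to 4 higher and 3 to 10 lower in bone chips (median -0.12 to -0.06), 0 higher and 73 to 75 lower in ESC-OB (median -2.32 to -1.93), and 0 higher and 0 to 1 lower in all 3. In the interaction 6 to 9 were called, 2 to 6 more positive in bone and 3 to 5 in bone chips. Over all genes these fits gave 1932 to 2408 higher and 2186 to 2814 lower in bone, and 2006 to 2848 and 2198 to 3084 in bone chips. They gave 6331 to 6976 and 4666 to 5412 in ESC-OB, and in the interaction 1551 to 2275 more positive in bone and 1639 to 2270 in bone chips. Mean shares were 0.867 to 0.915% in bone GFP- and 0.371 to 0.408% in bone GFP+ (hi), 2.93 to 3.15% and 1.90 to 1.95% in bone chips, 5.93 to 6.23% in ESC and 1.44 to 1.86% in ESC-OB. In bone, 9 were lower without GFP- replicate 2, 3 without GFP- replicate 3 or GFP+ (hi) replicate 1 and 2 without GFP+ (hi) replicate 2, and 1 was higher without GFP- replicate 1 or 2 or GFP+ (hi) replicate 1 or 3. In bone chips, 5 were lower without GFP- replicate 1, 3 without GFP+ (hi) replicate 1 and 4 without GFP+ (hi) replicate 2, and 2 were higher without GFP- replicate 1 or GFP+ (hi) replicate 3 and 1 without GFP+ (hi) replicate 1. The interaction had 6 more positive in bone without bone GFP- replicate 3 and 3 more positive in bone chips without that library or bone chip GFP- replicate 1 or 3. The call in all 3 comparisons was lost without bone GFP- replicate 2 or 3, bone GFP+ (hi) replicate 1 or 2, or bone chip GFP+ (hi) replicate 1.

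With the replicate number as a block, 3 members were higher and 5 lower in bone, 4 and 9 in bone chips and 0 and 74 in ESC-OB, and 8 were called in the interaction. Over all genes that fit gave 2160 higher and 2494 lower of 12559 in bone and 2709 and 3077 of 12841 in bone chips. It gave 6516 and 5271 of 15417 in ESC-OB, and in the interaction 1869 of 13574 more positive in bone and 2013 in bone chips. DESeq2 gave 2 and 7, 4 and 13, and 0 and 74. Over all genes DESeq2 gave 2499 higher and 2982 lower of 12559 in bone, 2579 and 2711 of 12841 in bone chips, and 6650 and 5453 of 15417 in ESC-OB. *Rpl30* and *Rpl3l* had too few counts to be tested in bone and bone chips, *Rpl10l* in bone and *Rpl3l* also in ESC-OB, and the cause of the low counts was not tested.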
